A study of Mus musculus with 4 samples.

Results

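The genes of oxidative phosphorylation were examined in alveolar type II (AT2) cells, which make lung surfactant and renew the alveolar lining, with and without Alkbh5. Members were the protein-coding rows whose symbols name a subunit of complex I (Nduf), complex III (Uqcr), complex IV (Cox4 to Cox8) or complex V (Atp5), the complex I assembly factors of the Ndufaf series, and the protein-coding genes of the mitochondrial chromosome. The rule found 92 of 40092 rows. Grouped by symbol, these were 41 complex I subunits, 8 complex I assembly factors, 8 complex III subunits, 18 complex IV subunits and 17 complex V subunits. All 92 lie in the nuclear genome. The mitochondrial rows of the table used here were 22 transfer RNAs and 2 ribosomal RNAs, so the subunits encoded in the mitochondrial genome were not analysed here.

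The respiratory chain passes electrons from NADH and succinate to oxygen through complexes I to IV and pumps protons across the inner mitochondrial membrane, and complex V, the ATP synthase, uses that gradient to make ATP. Most subunits are encoded in the nucleus and imported, while a small set is made inside the organelle, so the complexes are built from the products of both genomes. AT2 cells are rich in mitochondria and use their output for surfactant lipid synthesis and secretion. ALKBH5 is a demethylase that removes the N6-methyladenosine mark from RNA.

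The libraries came from AT2 cells sorted on day 14 after bleomycin, an agent that injures the lung. The control group (Ctrl, 2 libraries) was Alkbh5flox/+, Sftpc-CreERT2, Rosa26-mTmG, and the knockout group (A5-CKO, 2 libraries) was Alkbh5flox/flox with the same Cre and reporter. Mice of both groups were on a C57BL/6 background and received tamoxifen and bleomycin, so the controls also carried a floxed Alkbh5 allele and the inducible Cre, which the Sftpc promoter drives in AT2 cells, and sorting used the green fluorescence that Cre turns on. The age and sex of the mice, and whether animals were pooled, are not given in the sources used here, and p-values measure the spread between these libraries.

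The libraries held 18144865 to 20811757 counts, so a count of 3 corresponded to 0.128 to 0.177 CPM, the counts scaled to a common library size of 1000000. This floor covers counting error only. Alkbh5 itself had 81.6 and 152 CPM in Ctrl and 19.3 and 36.5 CPM in A5-CKO, with no overlap between groups (log2 fold change -2.06, adjusted p = 0.528 by the quasi-likelihood test of edgeR, adjusted by Benjamini-Hochberg over all genes). Of the 10 AT2 markers, such as the surfactant genes, 7 were lower in A5-CKO without overlap (23.5% of all genes). The summed level of the 10 was 56631 CPM (Ctrl 1), 82070 CPM (Ctrl 2), 42167 CPM (A5-CKO 1) and 34852 CPM (A5-CKO 2). The summed levels of 6 fibroblast markers ranged from 93.1 CPM in A5-CKO 1 to 1012 CPM in A5-CKO 2. The summed level of 10 macrophage markers ranged from 10336 CPM (A5-CKO 2) to 19611 CPM (Ctrl 2), most of it from Lyz2 and Cd74, which AT2 cells also express. The other 8, set apart after the values were seen, summed to 600.4 CPM (Ctrl 1), 155 CPM (Ctrl 2), 202 CPM (A5-CKO 1) and 795 CPM (A5-CKO 2). C1qa, which marks macrophages, had 164, 8.89, 12.2 and 202 CPM in this order. As a sum, these markers were thus higher in Ctrl 1 and A5-CKO 2 than in Ctrl 2 and A5-CKO 1. Adgre1, Cd68, Csf1r, Marco and Mrc1 were also higher in Ctrl 1 and A5-CKO 2. Ptprc (50.8, 22.5, 84.2 and 82.7 CPM) and Siglecf (6.08, 5.29, 0.633 and 4.31 CPM) did not have this pattern. Ctrl 1 stood apart from Ctrl 2 in the members themselves, as described below. The median over all members and the values of some single members are also given without it. The medians and overlap counts of each complex, and other single members, are given with all 4 libraries only.

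After scaling of the libraries by TMM factors, the respiratory chain genes were lower in A5-CKO as a group, but no single member passed the adjusted threshold in edgeR. Of 92 members, 86 had enough counts to be tested, of which 83 had a negative log2 fold change (50.9% of all genes) and 3 a positive one (49.1%). The median log2 fold change of the tested members was -0.65, and that of all 16661 tested genes was -0.02. For 70 members, both A5-CKO values were below both Ctrl values (23.5% of all genes), and for 2 they were above, Ndufaf6 and Cox6b2 (20.3% of all genes). The groups overlapped for the other 14 members. The count with an adjusted p under 0.05 was 0 (0.0% of all genes) in edgeR and 1, Cox6a2, in DESeq2, where 0.33% of all genes passed on the same genes. The count with an unadjusted p under 0.05 in edgeR was 16 lower (4.71% of all genes) and 0 higher (4.48%). In bulk samples, fewer cells of a type and less RNA per cell cannot be told apart.

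**Figure D1:**
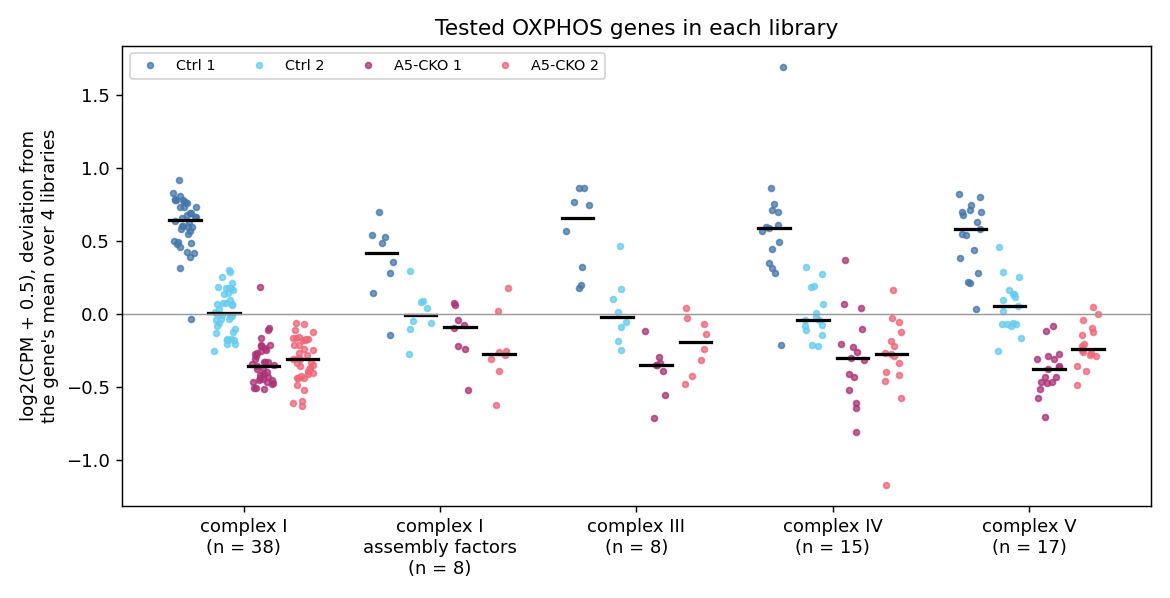
Each point is a tested gene in a library, grouped by complex on the horizontal axis, and the vertical axis is log2(CPM + 0.5) minus that gene's mean over the 4 libraries, with a black bar at the median. By median, Ctrl 1 lies highest in each of the 5 groups, Ctrl 2 near 0, and both A5-CKO libraries below 0.

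The members were not equally high in the Ctrl libraries. On the log2 scale, the members deviated from their mean over the libraries by a median of 0.60 (Ctrl 1), 0.00 (Ctrl 2), -0.34 (A5-CKO 1) or -0.27 (A5-CKO 2). The Ctrl libraries were thus further apart than Ctrl 2 was from either A5-CKO library. The median log2 ratio of Ctrl 1 to Ctrl 2 was 0.56 over the members, with 80 of 86 higher in Ctrl 1, and 0.00 over all genes. Between the A5-CKO libraries the median ratio was -0.05 over the members, and 37 of 86 were higher in A5-CKO 1.

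Leaving out Ctrl 1 reduced the median difference to -0.23, where that of all genes was 0.07, and 72 of 86 members stayed negative (46.6% of all genes). In that fit 2 members, Cox6a2 and Ndufb11, had an unadjusted p under 0.05 (3.96% of all genes lower). Leaving out Ctrl 2 gave a median of -0.96 and 56 such members (5.7% of all genes). Without A5-CKO 1 there was 1 such member (1.68%) and without A5-CKO 2 there were 2 (2.24%). The AT2 markers did not share this order, since their summed level was higher in Ctrl 2 than in Ctrl 1. The sum of the macrophage markers other than Lyz2 and Cd74 was higher in Ctrl 1 than in Ctrl 2, as the members were, but highest in A5-CKO 2. The part of cell makeup in the result was not tested.

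Whether the groups overlapped depended on how the libraries were scaled. Before scaling, members took 1.29% of all counts in Ctrl 1 (Wilson 95% interval 1.28 to 1.29), 0.820% in Ctrl 2 (0.816 to 0.824), 0.783% in A5-CKO 1 (0.779 to 0.787) and 0.870% in A5-CKO 2 (0.866 to 0.874). The groups overlapped, with A5-CKO 2 above Ctrl 2 (exact permutation test over the 4 libraries, two-sided p = 0.667). After TMM scaling, which assumes that most genes do not differ, the summed level was 13803, 9526, 7075 and 7731 CPM in the same order and the groups did not overlap (exact permutation p = 0.333, the smallest this design can give). The TMM factors themselves were 0.933 and 0.860 in Ctrl against 1.11 and 1.13 in A5-CKO.

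With total counts only, the median of all genes moved to 0.30 and that of the members to -0.34. The members lay 0.63 log2 units below the median of all genes with TMM factors and 0.64 below it with total counts. The separation by library did move. Scaled by total counts only, 19 members were lower in A5-CKO without overlap (10.1% of all genes), 3 were higher (34.8% of all genes) and 64 overlapped.

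**Figure D2:**
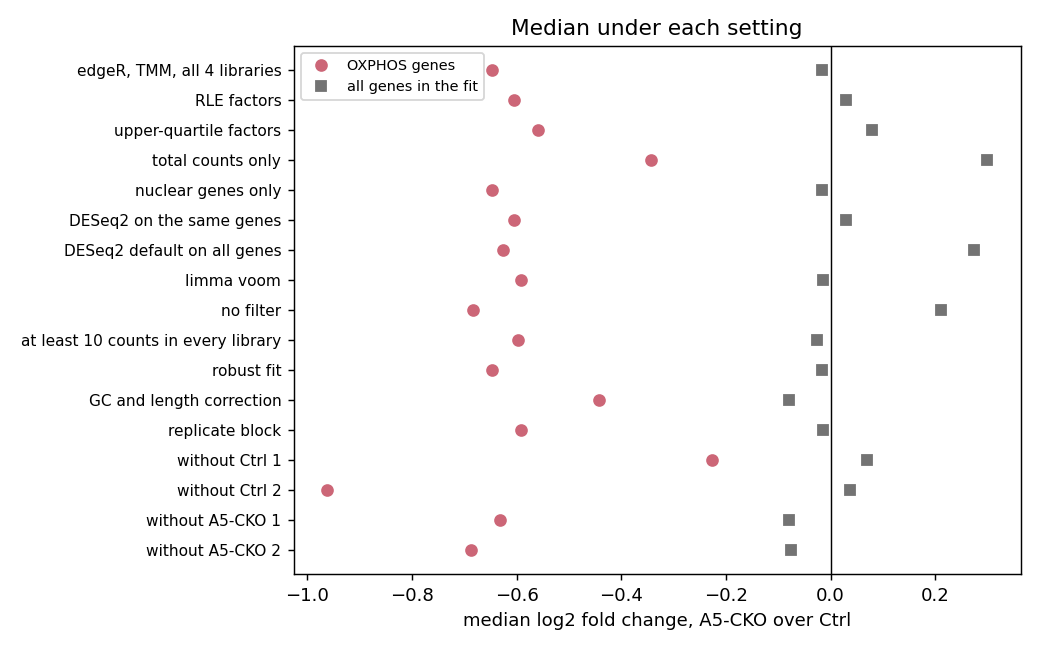
Median log2 fold change, A5-CKO over Ctrl, of the oxidative phosphorylation genes (circles) and of all genes in the fit (squares) on the horizontal axis, with 1 processing setting per line. The members lie left of all genes in each setting, by the least without Ctrl 1 (-0.23 against 0.07) and the most without Ctrl 2 (-0.96 against 0.04).

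The promoters of these genes were compared for the motifs of 3 factors long associated with nuclear genes of the respiratory chain, and sequences are shown for members with an unadjusted p under 0.05 that do and do not hold one. RefSeq promoters on GRCm38.p6, from 250 bases before to 50 bases after the start of a gene, were matched for 75 of 92 members. On both strands, the NRF1 motif GCGCANGCG or its reverse complement CGCNTGCGC was found in 26.7% of members, 13.8% of the 11075 tested protein-coding genes with a promoter and 7.03% of all 27025 promoters. The ETS motif CCGGAAG, bound by GABP, was found in 22.7%, 18.4% and 9.93% in the same order, and the YY1 motif AAGATGGC in 14.7%, 4.84% and 3.19%. At least 1 of the 3 motifs was found in 53.3% of members and in 32.1% of the tested protein-coding genes. The 80 bases directly before the start are printed with motif letters in capitals. Atp5g2 (chr15:102671048-102671127, minus strand) holds overlapping NRF1 matches on both strands and Ndufb4 (chr16:37654369-37654448, minus strand) holds 2 separate ones in this stretch. Ndufb11 (chrX:20617620-20617699, minus strand) and Cox7a2l (chr17:83514334-83514413, minus strand) hold none of the 3 motifs.
Atp5g2: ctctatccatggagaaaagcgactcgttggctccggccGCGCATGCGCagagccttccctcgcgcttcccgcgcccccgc
Ndufb4: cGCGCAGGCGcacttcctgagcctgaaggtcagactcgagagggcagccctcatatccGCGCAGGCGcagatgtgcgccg
Ndufb11: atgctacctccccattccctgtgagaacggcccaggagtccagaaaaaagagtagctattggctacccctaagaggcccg
Cox7a2l: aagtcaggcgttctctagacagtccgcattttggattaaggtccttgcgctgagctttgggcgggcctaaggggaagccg
Members with and without these letters were thus both found among those with the lowest p-values. Of the 14 members with an unadjusted p under 0.05 and a promoter, 4 held the NRF1 motif and 7 held at least 1 of the 3. A match is a description of the letters and not evidence that the factor binds there.

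Complex I, the NADH dehydrogenase, held 11 of the 16 members lower at an unadjusted p under 0.05 (4.71% of all genes). Its 38 tested genes, grouped by symbol, had a median log2 fold change of -0.72, and 37 were negative (50.9% of all genes). After TMM scaling, 32 were lower in A5-CKO without overlap (23.5% of all genes). The 6 tested core subunits, which carry the redox centres and the NADH site and exist in bacteria too, had a median of -0.67. The 32 other tested genes with such symbols had a median of -0.72. Most encode accessory subunits, which surround the core in animals. The group also holds Ndufa4 and its paralogue Ndufa4l2, described below, and the Ndufb4 retrocopy Ndufb4b. Summed over the complex, the level was 4796 and 3256 CPM in Ctrl and 2443 and 2493 CPM in A5-CKO. Before scaling, the complex took 0.448% and 0.280% of counts in Ctrl and 0.270% and 0.281% in A5-CKO, with overlap.

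Ndufa6, an accessory subunit of the matrix arm (chr15:82350139-82354291, GRCm38.p6), had 167 and 100 CPM in Ctrl and 62.0 and 57.7 CPM in A5-CKO. The groups did not overlap, and the log2 fold change was -1.16 (SE 0.34, unadjusted p = 0.0121, adjusted p = 0.528 in edgeR). Ndufb11, an accessory subunit of the membrane arm whose gene lies on the X chromosome (chrX:20615326-20617619) and overlaps Rbm10, had 288 and 206 CPM in Ctrl and 118 and 111 CPM in A5-CKO. It was the complex I subunit with the lowest p, at a log2 fold change of -1.12 (SE 0.32, unadjusted p = 0.0106, adjusted p = 0.528 in edgeR), and the difference was -0.77 without Ctrl 1.

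Among the core subunits, Ndufs7, which carries the last iron-sulfur cluster of the chain, had 110 and 84.1 CPM in Ctrl and 55.9 and 53.4 CPM in A5-CKO. Ndufs8, which carries a pair of iron-sulfur clusters, had 139 and 95.6 CPM against 62.0 and 67.9 CPM. Neither overlapped between groups, and they had log2 fold changes of -0.83 and -0.85. Ndufs1 is the largest core subunit of the NADH-oxidising arm. Its levels were 66.3 and 66.4 CPM in Ctrl and 77.5 and 62.3 CPM in A5-CKO, overlapping, at a log2 fold change of 0.08 (SE 0.28), which was -0.17 with the GC and length correction described below and -0.09 without A5-CKO 1.

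Further complex I subunits with an unadjusted p under 0.05 were accessory ones. Ndufb2, of the membrane arm, had 87.99 and 53.3 CPM in Ctrl and 37.2 and 38.3 CPM in A5-CKO. Ndufa13, also known as GRIM-19, had 220 and 136 CPM against 95.0 and 97.5 CPM. Ndufb4 had 97.9 and 57.6 CPM against 42.1 and 43.8 CPM. The Methods name uniquely mapped reads for the counting, so reads that also match its retrocopies Ndufb4b and Ndufb4c may be missing. Ndufb2, Ndufa13 and Ndufb4 were all lowest in the A5-CKO libraries without overlap, with log2 fold changes of -0.91, -0.89 and -0.85. Ndufc2 had 194 and 141 CPM in Ctrl and 100.5 and 87.0 CPM in A5-CKO. Ndufb5 had 142 and 94.1 CPM against 70.2 and 69.7 CPM, and Ndufb10 had 152 and 115 CPM against 80.1 and 78.0 CPM. None of these 3 overlapped between groups either, and their log2 fold changes were -0.84, -0.76 and -0.76.

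**Figure D3:**
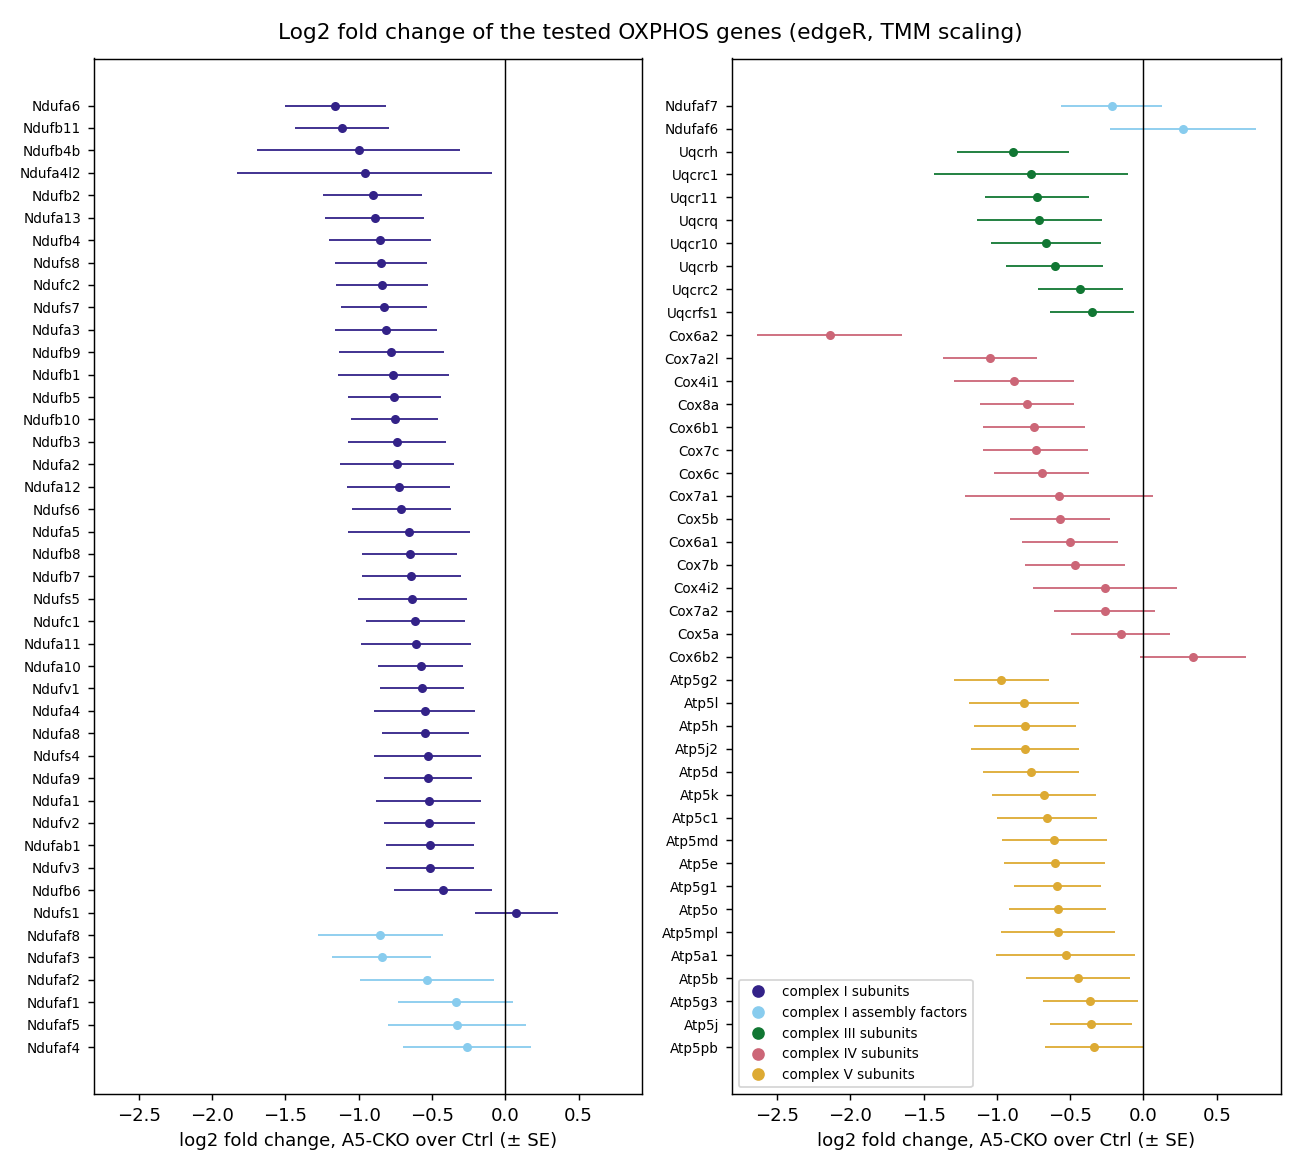
Log2 fold change of A5-CKO over Ctrl (horizontal axis) with its standard error for the tested genes reported here, coloured by complex and ordered by value within it. Cox6a2 lies furthest to the left at -2.14, and Ndufs1, Ndufaf6 and Cox6b2 lie right of 0, of which Ndufs1 is at -0.17 with the GC and length correction and at -0.09 without A5-CKO 1.

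Per kilobase of transcript, Ndufa4 had the highest level among the genes named for complex I, at 380 and 233 CPM per kb in Ctrl and 208 and 211 in A5-CKO. Its product is now known as a component of complex IV, which its symbol does not show, and its log2 fold change was -0.55 (SE 0.34), without overlap. Its paralogue Ndufa4l2, which hypoxia induces, was the lowest of the tested ones at 1.52 and 0.498 CPM per kb in Ctrl and 0.387 and 0.640 in A5-CKO, with overlap. The 8 Ndufaf assembly factors, which help to build complex I but are not part of it, had a median log2 fold change of -0.33. Of these, 5 were lower in A5-CKO without overlap (23.5% of all genes). Ndufaf3 had 42.2 and 35.4 CPM in Ctrl and 24.7 and 18.6 CPM in A5-CKO, at a log2 fold change of -0.84 (SE 0.34, unadjusted p = 0.0426, adjusted p = 0.528 in edgeR). It was also the highest factor per kilobase. Ndufaf4, the lowest, had 19.8 and 11.5 CPM in Ctrl and 11.8 and 14.3 CPM in A5-CKO, which overlap.

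Complex III, the cytochrome bc1 complex, had 8 tested subunits among the members, each with a negative log2 fold change (50.9% of all genes). Their median was -0.69, and none had an unadjusted p under 0.05 in edgeR. After TMM scaling, 7 were lower in A5-CKO without overlap (23.5% of all genes). Uqcrh, the hinge protein and the highest subunit per kilobase, had 330 and 174 CPM in Ctrl and 138 and 134 CPM in A5-CKO. The groups did not overlap, and the log2 fold change was -0.89 (SE 0.38), which was -0.27 without Ctrl 1. The range over the complex ran up to -0.35 in Uqcrfs1, the Rieske iron-sulfur protein, which had 120 and 119 CPM in Ctrl and 83.6 and 104 CPM in A5-CKO.

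Complex IV, cytochrome c oxidase, held the member with the most negative log2 fold change, Cox6a2, and also the most positive, Cox6b2. The 15 tested genes of this complex had a median log2 fold change of -0.58, and 14 were negative (50.9% of all genes). After TMM scaling, 10 were lower in A5-CKO without overlap (23.5% of all genes) and 1 was higher (20.3%). Several subunits of the complex exist as isoforms used by different tissues. Cox6a2 is the isoform of heart and skeletal muscle and Cox6a1 that of most other tissues. Cox6a2 (chr7:128205435-128206366, GRCm38.p6) had 250.6 and 93.6 CPM in Ctrl and 43.9 and 34.1 CPM in A5-CKO. The 4 libraries were ordered without overlap, and Ctrl 1 was well above Ctrl 2. Its log2 fold change was -2.14 (SE 0.50, unadjusted p = 0.00362, adjusted p = 0.528 in edgeR). In DESeq2, the adjusted p was 0.0265 on the same genes and 0.0224 at default filtering, and over the scaling, filter, tool and left-out-library alternatives it ranged from 0.0224 to 0.899. Without Ctrl 1 the log2 fold change was -1.18.

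Cox6a1 had 308 and 216 CPM in Ctrl and 178 and 193 CPM in A5-CKO (log2 fold change -0.50, SE 0.33). As a share of the counts of the pair, which no scaling of libraries can move, Cox6a2 took 44.9% in Ctrl 1 (Wilson 95% interval 43.9 to 45.9), 30.2% in Ctrl 2 (29.0 to 31.5), 19.8% in A5-CKO 1 (18.7 to 20.9) and 15.01% in A5-CKO 2 (14.1 to 15.998). The groups did not overlap and differed by 20.1 percentage points on average. Intervals cover counting error only.

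Other genes of muscle were read beside Cox6a2. The summed level of 10 cardiac muscle markers was 7.80 and 9.12 CPM in Ctrl and 11.6 and 11.9 CPM in A5-CKO, and 1 of the 6 tested had a negative log2 fold change, while Mb, Nppa, Tnnc1 and Tnnt2 had too few counts to be tested. Cox8b, a muscle isoform of another subunit, had 2, 0, 0 and 0 counts, and Cox7a1, the muscle isoform of subunit 7a, had 2.72 and 2.44 CPM in Ctrl and 2.22 and 1.24 CPM in A5-CKO, lower without overlap (log2 fold change -0.58). The part of muscle RNA in the Cox6a2 result was not tested. Cox6a2 overlaps Itgad, an integrin gene of myeloid cells, by 70 bases. Itgad had 5.14 and 3.83 CPM in Ctrl and 1.27 and 1.62 CPM in A5-CKO, far below Cox6a2, and its part in the Cox6a2 counts was not tested.

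Cox6b2, the testis isoform of subunit 6b, was higher in both A5-CKO libraries, at 25.7 and 19.1 CPM against 17.1 and 18.4 CPM in Ctrl (log2 fold change 0.34, SE 0.36). The gap to the Ctrl libraries was small for A5-CKO 2. Its partner Cox6b1 had 293 and 181 CPM in Ctrl and 134 and 149 CPM in A5-CKO (log2 fold change -0.75, SE 0.35). The Cox6b2 share of the pair was 5.51% (4.92 to 6.16) and 9.205% (8.28 to 10.2) in Ctrl and 16.1% (14.96 to 17.4) and 11.4% (10.4 to 12.4) in A5-CKO, with no overlap between groups.

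Cox7a2l, also called SCAF1, is related to subunit 7a and has been described as joining complexes III and IV into supercomplexes, which were not measured here. It lies at chr17:83501917-83514333 and had 336 and 256 CPM in Ctrl and 131 and 155 CPM in A5-CKO, at a log2 fold change of -1.05 (SE 0.32, unadjusted p = 0.0144, adjusted p = 0.528 in edgeR), which was -0.75 without Ctrl 1. Cox7a2, the common isoform of subunit 7a itself, had 262 and 165 CPM in Ctrl and 167 and 189 CPM in A5-CKO, which overlap, and its log2 fold change of -0.26 (SE 0.34) had the opposite sign with total counts only (0.04), with the GC and length correction (0.02) and without Ctrl 1 (0.19). The Cox7a2l share of the pair was 56.1% (55.2 to 57.1) and 60.7% (59.6 to 61.8) in Ctrl and 43.9% (42.7 to 45.1) and 45.1% (44.0 to 46.2) in A5-CKO. In this pair the Ctrl libraries lay closer to each other than to the A5-CKO libraries, and Ctrl 1 was not the higher of them.

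**Figure D4:**
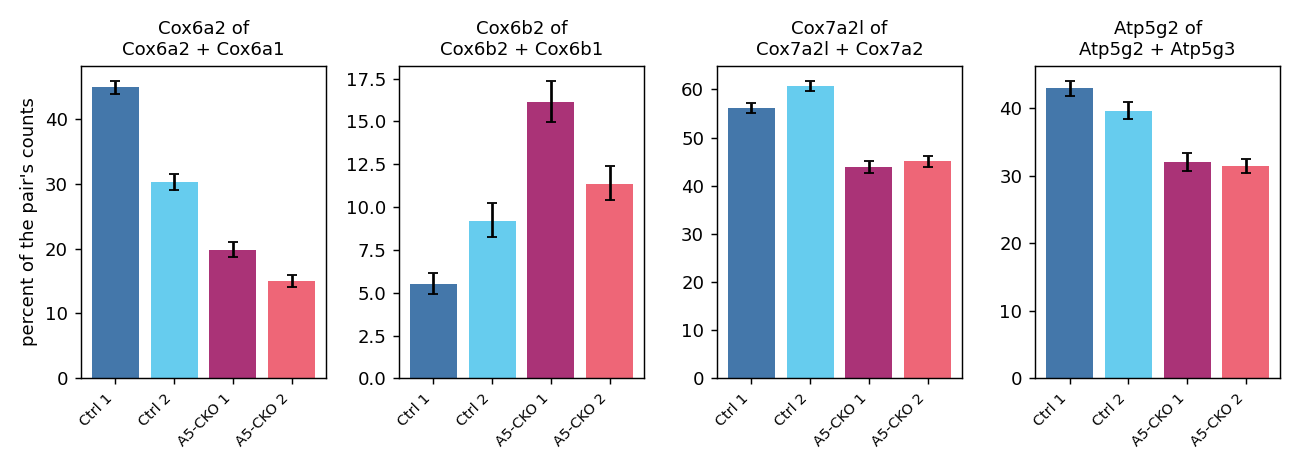
Share of the first-named gene in the counts of a pair (percent, vertical axis) in each of the 4 libraries, with Wilson 95% intervals as error bars. Shown are the 4 pairs picked because their Ctrl and A5-CKO libraries did not overlap, and the 3 compared pairs that overlapped are left out. Cox7a2l was at 56.1% and 60.7% against 43.9% and 45.1%.

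Among the other complex IV genes, Cox4i1 is the ubiquitous isoform of subunit 4 and was the highest of the complex per kilobase. It had 726 and 389 CPM in Ctrl and 261 and 343 CPM in A5-CKO (log2 fold change -0.88, SE 0.41). Without Ctrl 1 the log2 fold change of Cox4i1 was -0.28. Its lung and hypoxia isoform Cox4i2 had 7.91 and 6.22 CPM against 6.60 and 5.17 CPM, with overlap, and it is also known from pericytes, whose 10 markers summed to 89.9, 34.8, 28.3 and 168 CPM. The Cox4i2 share of its pair was 1.08% and 1.57% in Ctrl against 2.46% and 1.48% in A5-CKO, which overlap. Cox8a, the common isoform of subunit 8, had 317 and 241 CPM in Ctrl and 147 and 175 CPM in A5-CKO (log2 fold change -0.79, SE 0.32). Cox6c had 259 and 179 CPM against 143 and 128 CPM, without overlap (log2 fold change -0.69, SE 0.33). Cox7b had 146 and 88.9 CPM against 91.7 and 78.0 CPM, with overlap (-0.47, SE 0.34). Cox7a1 was the lowest tested gene of the complex per kilobase, and its share beside Cox7a2 overlapped between groups.

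Complex V had 17 tested subunits, all with a negative log2 fold change (50.9% of all genes) and a median of -0.61. After TMM scaling, 16 of them were lower in A5-CKO without overlap (23.5% of all genes). Before scaling, the complex took 0.399% and 0.282% of counts in Ctrl and 0.260% and 0.309% in A5-CKO, with overlap. The catalytic F1 head had a median of -0.61 over its 5 genes and the remaining 12 genes a median of -0.60. Atp5b, the catalytic beta subunit and the highest gene of the complex per kilobase, had 949 and 977 CPM in Ctrl and 593 and 820.5 CPM in A5-CKO. It did not show the excess of Ctrl 1 that marked most members, and its log2 fold change was -0.45 (SE 0.36).

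The membrane ring of ATP synthase is made of subunit c, which the genes Atp5g1, Atp5g2 and Atp5g3 encode as identical mature proteins. Atp5g2 (chr15:102662868-102671047) had 176 and 134 CPM in Ctrl and 67.1 and 91.3 CPM in A5-CKO (log2 fold change -0.97, SE 0.32, unadjusted p = 0.01999, adjusted p = 0.528 in edgeR). Atp5g3 had 233 and 205 CPM against 142 and 199 CPM (-0.36, SE 0.32), and Atp5g1 had 67.2 and 54.5 CPM against 38.5 and 42.5 CPM (-0.59, SE 0.29). The Atp5g2 share beside Atp5g3 was 43.0% (41.8 to 44.1) and 39.6% (38.4 to 40.9) in Ctrl and 32.1% (30.8 to 33.4) and 31.5% (30.4 to 32.6) in A5-CKO. The Atp5g2 share did not overlap between groups, while that of Atp5g1 beside Atp5g3 did, at 22.4% and 21.0% against 21.3% and 17.6%. Atpif1, the inhibitor of ATP synthase that binds its F1 head, had 136 and 91.9 CPM in Ctrl and 85.1 and 69.1 CPM in A5-CKO (log2 fold change -0.56, SE 0.32).

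Of 7 isoform pairs compared, 4 did not overlap between groups (Cox6a2, Cox6b2, Cox7a2l and Atp5g2), each at the smallest p that an exact permutation test over 4 libraries can give (two-sided p = 0.333, 0.583 after Benjamini-Hochberg adjustment over the 7 pairs). With no difference between groups, 2 against 2 libraries separate as often as that unadjusted p states. Of all tested genes, 23.5% were lower and 20.3% higher in A5-CKO without overlap after TMM scaling. That share is of single genes and not of pairs. The pairs were chosen with the values known. The complexes were also set against each other within each library. The log2 ratio of complex I to complex V counts was 0.17 and -0.01 in Ctrl against 0.06 and -0.14 in A5-CKO, that of complex IV to complex V was -0.36 and -0.65 against -0.60 and -0.67, and that of complex III to complex V was -1.78 and -2.07 against -1.91 and -2.03. All 3 ratios overlapped between groups (exact permutation p = 0.667, 0.667 and 1, and 1 for each after adjustment over the 3).

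The members are short genes, and the difference between the Ctrl libraries moved with length. Their median transcript length was 727 bases, against 2576.5 bases over all tested genes. Over 85 members with a length, Spearman's rho of the log2 ratio of Ctrl 1 to Ctrl 2 with length was -0.49, and that of the log2 fold change between genotypes with length was 0.18. The rho of that log2 fold change with GC content was -0.39 over the same 85 members. Members under 1000 bases (n = 60) were higher in Ctrl 1 than in Ctrl 2 by a median of 0.69, and those of 1000 bases or more (n = 25) by 0.25. The median log2 fold changes of these groups were -0.69 and -0.52. The points share the same 4 libraries, and genes are not independent replicates. With offsets for GC content and length in each library, the median log2 fold change was -0.44 over 85 members and -0.08 over all genes, 81 members were negative (55.9% of all genes), and 18 had an unadjusted p under 0.05 (5.01% lower), of which 6 were among the 16 of the uncorrected fit. Those 6 were Cox6a2, Cox7a2l, Ndufa6, Ndufb5, Ndufb11 and Ndufc2.

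**Figure D5:**
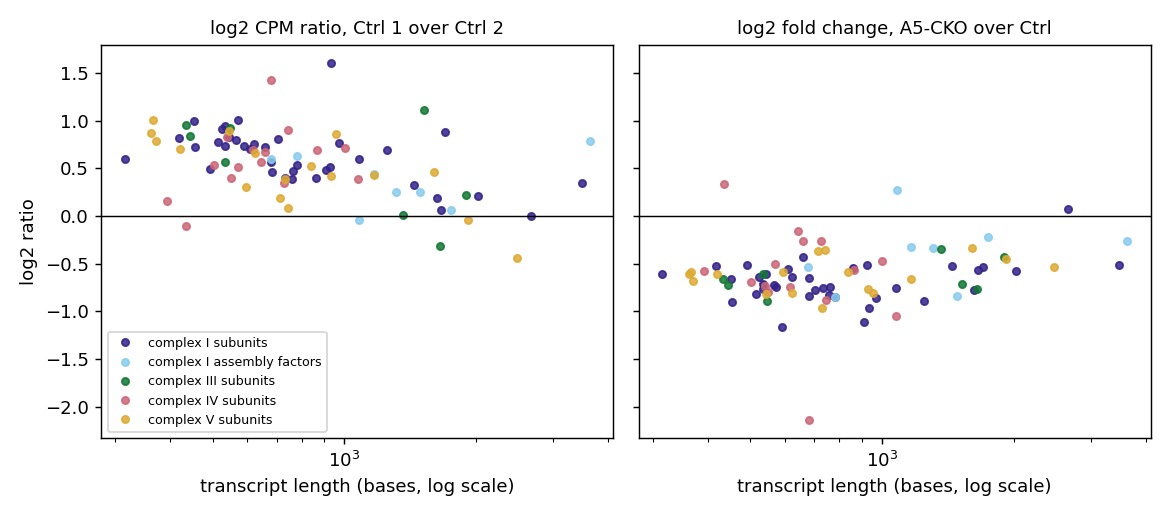
Left, log2 CPM ratio of Ctrl 1 to Ctrl 2, and right, log2 fold change of A5-CKO over Ctrl, against transcript length in bases (log scale), with 1 point per tested member coloured by complex. The ratio between the Ctrl libraries is larger in short genes (rho -0.49), and the fold change between genotypes has a rho of 0.18 with length.

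A few members had counts far below those of their partner subunits, and their values are therefore uncertain as levels of the gene. The Methods name uniquely mapped reads for the counting, and whether the counting is behind these low values was not tested. Ndufs3, a core subunit of complex I, had 0, 0, 5 and 0 counts, and Ndufa7 had 0 in every library. Uqcrc1, a core subunit of complex III, had 42, 53, 24 and 51 counts and has a further row on an alternative sequence of the same genome, which held 0. Atp5a1, the alpha subunit of the F1 head, had 141, 195, 127 and 184 counts, although it is present in the enzyme in the same number of copies as Atp5b. Uqcrc1 and Atp5a1 were thereby the lowest tested genes of complexes III and V per kilobase. The testis isoforms Cox7b2 and Cox8c had at most 2 counts in any library, and the retrocopy Ndufb4c had 9, 4, 6 and 4.

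Genes that work with the complexes divided into lists that lay below the median of all genes and lists that did not. Complex II, the succinate dehydrogenase, is wholly encoded in the nucleus. Its subunits and the assembly factors Sdhaf1 to Sdhaf4 were 8 tested genes with a median log2 fold change of -0.36. All were negative and none had an unadjusted p under 0.05 in edgeR. The subunits Sdhb, Sdhc and Sdhd had log2 fold changes of -0.73, -0.68 and -0.34, each without overlap. The flavoprotein of complex II, Sdha, had 224 and 284 CPM in Ctrl and 249 and 209 CPM in A5-CKO, which overlap (log2 fold change -0.15). Cytochrome c (Cycs) had a log2 fold change of -0.25. Cytochrome c1 (Cyc1) is a subunit of complex III whose symbol the rule for members did not match. It had 190 and 159 CPM in Ctrl and 102 and 139 CPM in A5-CKO, without overlap (log2 fold change -0.53). The 29 tested assembly genes of complexes III and IV had a median of -0.55, and the 10 of complexes I and V a median of -0.21, with no unadjusted p under 0.05 in either list. The mitochondrial ribosome, which translates the subunits made in the organelle, had 75 tested genes with a median of -0.48, of which 73 were negative (50.9% of all genes). An unadjusted p under 0.05 was found for 8, all lower (4.71% of all genes), Mrpl14, Mrpl38, Mrpl48, Mrpl54, Mrpl58, Mrps12, Mrps24 and Mrps34. Like the members, the ribosome genes were highest in Ctrl 1, with median log2 deviations of 0.47 (Ctrl 1), -0.04 (Ctrl 2), -0.30 (A5-CKO 1) and -0.17 (A5-CKO 2). Their median without Ctrl 1 is not given here.

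The lists of regulators lay closer to the median of all genes. The 17 tested genes for transcription, replication and RNA stability of mitochondrial DNA had a median log2 fold change of 0.06, with 8 negative and 9 positive. Tfam, which packages and transcribes the mitochondrial genome, had 35.6 and 27.9 CPM in Ctrl and 33.9 and 32.3 CPM in A5-CKO. The 9 nuclear regulators of mitochondrial biogenesis had a median of 0.07, and 2 were negative. Ppargc1a, the coactivator PGC-1alpha, had 5.91 and 7.84 CPM in Ctrl and 11.03 and 8.41 CPM in A5-CKO, so both A5-CKO libraries were higher, at a log2 fold change of 0.50 (SE 0.47). Nrf1 had 28.6 and 40.5 CPM against 31.3 and 29.5 CPM, which overlap. None of these genes had an unadjusted p under 0.05 in either list.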

How the data were processed

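RNA-seq was performed on GFP+ AT2 cells sorted from lung in 2 Ctrl and 2 A5-CKO libraries on day 14 after bleomycin. The authors deposited whole read counts per gene without normalization. The submitters' processing notes name Trim Galore 0.6.10, HISAT2 2.2.1, featureCounts 2.0.3 and mm10. Under RNA-seq, the Methods describe removal of ribosomal RNA reads and of duplicates, which can lower the counts of abundant short genes. The counting of reads is described under MeRIP-seq, where uniquely mapped reads that passed a duplicate filter were kept. Removal of duplicates is thus named under both headings. Removal of ribosomal reads is named under RNA-seq only, so whether it applied to these counts is not certain. The strand setting is not given in the sources used here, so overlapping genes, which include 31 of 92 members, are uncertain.

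Counts were analysed with edgeR 4.0.16 in R 4.3.3 (TMM factors, filterByExpr, glmQLFit, glmQLFTest) over 16661 genes with Benjamini-Hochberg adjustment, and the script was tested on simulated data. CPM are counts divided by the scaled library size and multiplied by 1000000, and CPM per kb divides them by a transcript length. The common dispersion of 0.173 corresponds to a coefficient of variation of 41.6% between libraries. Library totals and shares were compared by exact permutation over the 4 libraries, two-sided. The alternatives tried were scaling by RLE or upper-quartile factors, by totals alone or by nuclear genes alone, DESeq2 1.42.0 and limma 3.58.1 (voom). Further ones were other count filters, a robust fit, splines for GC content and length (4 degrees of freedom, 15436 genes), a replicate block, and each library left out. A block with crossed replicate numbers was added after the data were seen.

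Members and gene lists were chosen with earlier results of these data known. Members are named by value if they belong to a tissue isoform set, have an unadjusted p under 0.05, or are the highest or lowest tested of their complex per kilobase. Others named, Ndufs1, Uqcrfs1, Ndufaf6, the untested members and the genes of other lists, were picked with their values in view. For 1 tested member, values are not reported here. Coordinates and promoters are RefSeq on GRCm38.p6, transcript lengths and GC content are from the GENCODE transcript of median length, matched by gene name.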

Additional observations from a re-analysis of the deposited data

Results flagged for a closer look

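The transfer RNA rows of the mitochondrial chromosome, which no comparison above used, summed to 612 and 659 CPM in Ctrl 1 and Ctrl 2 and to 1065 CPM in A5-CKO 1 and 334 CPM in A5-CKO 2. A5-CKO 1 was thus above both control libraries and A5-CKO 2 below both, and this signal outside the main measurement is why it is given here. The sums rested on 10362, 11343, 23561 and 7820 counts, and TrnE alone had 168, 206, 404 and 123 CPM. The groups overlapped (exact permutation test over the 4 libraries, two-sided p = 1). In the table used here these rows stand beside no messenger RNA rows of that chromosome, and whether they took reads from neighbouring transcripts was not tested. In the nuclear members, the median log2 ratio of A5-CKO 1 to A5-CKO 2 was -0.05.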

How the results depend on the processing

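The median log2 fold change of the members was negative in all alternatives run, and the unadjusted calls moved most. Of all 16661 genes, 1530 had an unadjusted p under 0.05 in either direction in edgeR with TMM factors. This number was 1485 with upper-quartile factors and 1871 with total counts only. Against 16 members lower at an unadjusted p under 0.05, upper-quartile factors gave 6 and total counts only gave 3, and leaving out a library gave 1 (without A5-CKO 1) to 56 (without Ctrl 2), with 2 without Ctrl 1 and 2 without A5-CKO 2. Leaving out a library took the median log2 fold change from -0.96 (without Ctrl 2) to -0.23 (without Ctrl 1). The count with an adjusted p under 0.05, 0 in edgeR, was 1 (Cox6a2) in DESeq2 on the same genes and 1 at its defaults. The share of counts on members differed by -0.227 percentage points between groups, and by -0.462 (without Ctrl 2) to 0.00692 (without Ctrl 1) with a library left out. Signs were opposite with total counts only for 5 members, Cox4i2 (0.043), Cox5a (0.15), Cox7a2 (0.040), Ndufaf4 (0.038) and Ndufaf7 (0.095), and with the GC and length correction for 3, Cox4i2 (0.17), Cox7a2 (0.016) and Ndufs1 (-0.17). Signs changed for 11 members without Ctrl 1 and for 2 without A5-CKO 1 (Cox5a and Ndufs1). Among members given with their values, the range from without Ctrl 2 to without Ctrl 1 was -0.58 to 0.19 for Cox7a2, -0.81 to 0.012 for Cox7b, -1.57 to 0.13 for Ndufa4l2 and -0.63 to 0.27 for Ndufaf4, and Ndufs1 lay between -0.090 with A5-CKO 1 left out and 0.22 with A5-CKO 2 left out. The cause was not tested. Named members kept their direction and their side of the threshold in 614 combinations of member and alternative. Cox6a2 passed the adjusted threshold in 3. These were both DESeq2 fits and the crossed block described below, which was chosen after seeing the data and is therefore no separate support.

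The replicate numbers are shared between genotypes, but same-numbered libraries deviated in opposite directions (correlation -0.35), so they are not taken as pairs. With the replicate block, 5 members had an unadjusted p under 0.05, as did 754 of all 16661 genes in either direction. Crossing the numbers, chosen after seeing the data, gave 26 (2582 over all genes) and 1 with an adjusted p under 0.05 (230 over all genes). The results planned for the protein-coding genes of the mitochondrial chromosome were not run, because no such row is in the table used here. With 2 libraries a group, permutation cannot give a p under 0.333.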

Other observations

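The mitochondrial ribosomal RNA rows were also measured, although the Methods describe removal of ribosomal reads for RNA-seq. Whether that step applied to these counts is not certain. mt-Rnr1 had 1539 and 1054 CPM in Ctrl and 758 and 645 CPM in A5-CKO, without overlap, while mt-Rnr2 had 2213 and 1153 CPM against 1494 and 895 CPM, with overlap. Like the nuclear members, both were highest in Ctrl 1.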
